A study of Mus musculus with 8 samples.

Results

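DARPP-32, the protein encoded by Ppp1r1b, and 8 further genes of the striatal dopamine response were examined in RNA from mouse hippocampus. The 9 genes were taken by symbol from deposited expression tables that list 55188 genes, and each symbol matched 1 row. They were chosen by the measured difference of Ppp1r1b, which was lower in the libraries labelled KO, and the values ask whether that lower level is shared by other genes enriched in striatum. The difference of Ppp1r1b between the groups is therefore given as a description, with no test. The other 8 genes were named with earlier results of these data known.

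Libraries came from C57BL/6 mice, either wild type (WT) or labelled as a knockout (KO) of Pyk2, the product of Ptk2b and a tyrosine kinase that responds to calcium, all taken at baseline before fear conditioning. Each group held 2 numbered units with 2 technical replicates each, 8 libraries in all. A unit counts here as 1 animal, which gives n = 2 in each group, although no label calls each number a mouse of its own. The p-values thus rest on the spread between these units and may not cover that between mice. For each gene, limma, used for the fits below, draws this spread partly from all genes tested. The labels describe all 8 libraries, wild type included, as from transgenic mice. The sources used here do not give the knockout allele, the age or the sex.

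In striatal projection neurons dopamine acts through Drd1, a receptor that raises cAMP, and Drd2, a receptor that lowers it. cAMP activates protein kinase A, which phosphorylates DARPP-32 on a threonine and turns it into an inhibitor of protein phosphatase 1. Ppp1r1a encodes inhibitor-1, a relative that blocks the same phosphatase when protein kinase A phosphorylates it. In hippocampus DARPP-32 is known from dentate granule cells, and both inhibitors are also known from the choroid plexus epithelium.

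The targeted gene and the tissue were checked first. Ptk2b stood at 202 to 232 FPKM (fragment counts scaled for transcript length and library size) in the 4 WT libraries and at 264 to 279 FPKM in the 4 libraries labelled KO, so its level does not bear out the label. Because 1 value covers the whole gene, a lost exon or a lost protein would not be seen, and directions below are those of the labels. Hippocampal markers were present in all 4 animals, with Prox1 of dentate granule cells at 14.5 to 17.4 FPKM and Wfs1 of CA1 at 36.6 to 64.7 FPKM. Choroid plexus and blood markers differed between the groups and are given beside the results they move with. In a bulk sample, fewer cells of a type and less RNA per cell cannot be told apart.

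The coding sequence of the inhibitor pair is shown where protein kinase A acts, because these related genes had different values between the groups. Each line gives 93 coding bases, 5′ to 3′ on the coding strand, from GENCODE M21 transcripts (mm10), with the codon of the phosphorylated threonine in capitals.
Ppp1r1b: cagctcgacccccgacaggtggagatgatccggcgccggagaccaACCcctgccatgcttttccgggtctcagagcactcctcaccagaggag
Ppp1r1a: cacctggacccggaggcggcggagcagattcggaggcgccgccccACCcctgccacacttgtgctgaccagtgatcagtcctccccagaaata
The threonine is codon 34 of 194 in Ppp1r1b and codon 35 of 171 in Ppp1r1a. Set side by side without gaps, 58 of the 93 bases are identical (62.4%), and the longest identical run is 10 bases. GENCODE M21 holds 3 protein-coding transcripts of Ppp1r1b. The longest open reading frame of 1 of them has this codon, and those of the other 2, of 158 codons each, do not. Values per gene do not separate these forms.

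Ppp1r1b (ENSMUSG00000061718, chromosome 11, 98348404 to 98357796, plus strand, mm10) stood at a lower level in every library labelled KO. For WT1 the technical replicates gave 48.5 and 50.5 FPKM, and for WT2 they gave 52.9 and 51.7 FPKM. For KO1 they gave 28.2 and 27.8 FPKM, and for KO2 27.7 and 28.9 FPKM. The 4 libraries labelled KO lay close together and far below the 4 WT libraries, with no overlap. The deposited confidence limits of single libraries did not meet either, at 46.2 to 55.4 FPKM over WT and 26.1 to 30.6 FPKM over KO. Group means were 50.9 ± 1.98 and 28.2 ± 0.220 FPKM (SD, n = 2 each), 44.7% apart, or -0.83 with a standard error (SE) of 0.04 on the log2(FPKM + 1) scale. This is the value that chose the genes. 1700003D09Rik, on the opposite strand, overlaps 7079 bases of Ppp1r1b and stood at 0.454 FPKM over the WT and 0.291 FPKM over the KO animals. No strand setting is given, so reads of both cannot be told apart.

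Ppp1r1a (ENSMUSG00000022490, chromosome 15, 103530279 to 103538003) stood at the highest level of the 9 genes and did not follow Ppp1r1b. Its libraries read 69.8 and 70.4 FPKM for WT1, 59.9 and 56.1 FPKM for WT2, 76.1 and 77.1 FPKM for KO1, and 64.8 and 64.5 FPKM for KO2. Animal number 1 was above number 2 within each group, and the groups overlapped. The difference was 0.14 on the log2 scale (SE 0.12, 95% interval -0.17 to 0.45, limma adjusted p = 0.619). It was 0.005 without WT2, 0.02 without KO1, 0.275 without WT1 and 0.261 without KO2. The ratio of Ppp1r1b to Ppp1r1a was 0.706 and 0.902 in the WT animals, and 0.366 and 0.438 in those labelled KO.

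**Figure D1:**
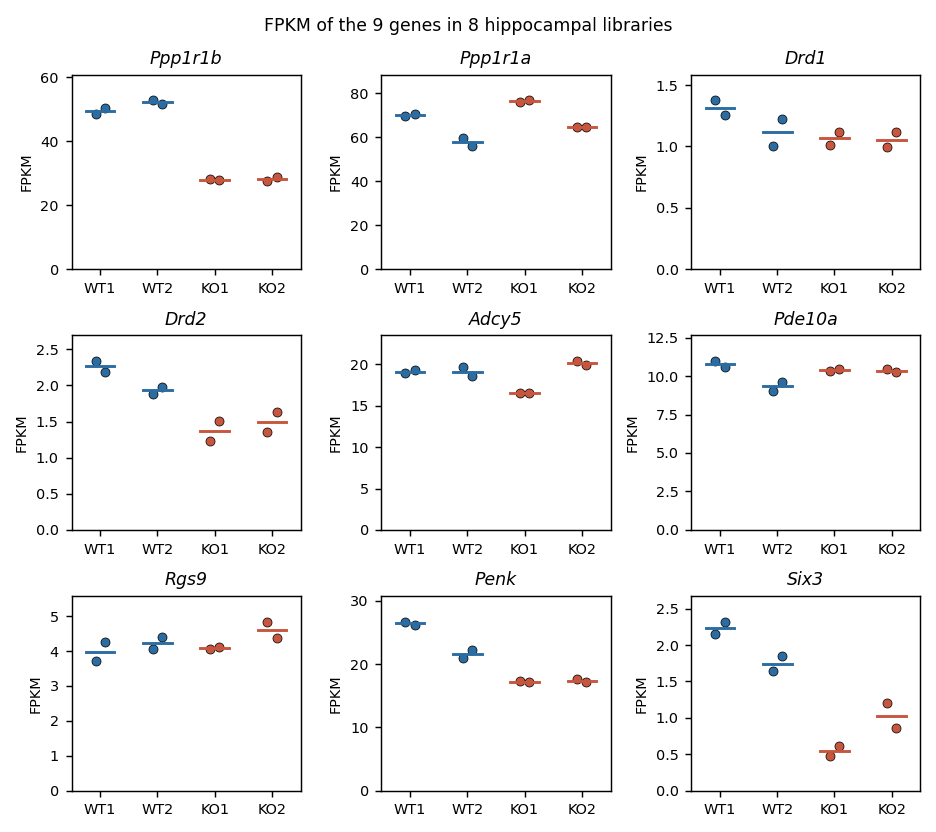
FPKM of each of the 9 genes (vertical axis from 0) in the 4 animals, where each point is 1 library and each bar the mean of the 2 technical replicates of an animal, WT in blue and KO in red. All 4 KO libraries lie below all 4 WT libraries for Ppp1r1b, Drd2, Penk and Six3, as in 13.0% of all genes tested. Libraries of Ppp1r1a, Drd1, Adcy5, Pde10a and Rgs9 overlap between the groups.

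The dopamine receptors stood at low levels. Drd1 (ENSMUSG00000021478, chromosome 13, 54051183 to 54055705) read 1.38 and 1.25 FPKM for WT1, 1.01 and 1.23 FPKM for WT2, 1.01 and 1.12 FPKM for KO1, and 0.998 and 1.11 FPKM for KO2. Libraries of the groups overlapped, and the difference was -0.10 (SE 0.09, 95% interval -0.33 to 0.12, limma adjusted p = 0.611). After quantile normalization it was 0.005, so Drd1 has no settled direction.

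Drd2 (ENSMUSG00000032259, chromosome 9, 49340627 to 49408177) read 2.34 and 2.19 FPKM for WT1, 1.88 and 1.98 FPKM for WT2, 1.24 and 1.502 FPKM for KO1, and 1.35 and 1.64 FPKM for KO2. All libraries labelled KO were below all WT libraries, though the deposited limits of single libraries met, reaching down to 1.602 FPKM in WT and up to 1.90 FPKM in KO. The difference was -0.35 (SE 0.09, 95% interval -0.58 to -0.11) and did not pass in limma (adjusted p = 0.206). With a pseudocount of 0.1 in place of 1, which shrinks low genes less, it was -0.52. In hippocampus Drd2 is known from the mossy cells of the dentate hilus, and Calb2, a marker of these cells in mouse, read 30.6 and 37.2 FPKM in the WT animals and 22.2 and 36.2 FPKM in those labelled KO. Calb2 was the only 1 of 6 tested mossy cell and CA3 markers with a lower mean in KO, and the median of the 6 was 0.14.

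Enzymes of the cAMP pathway and the G protein regulator Rgs9 overlapped between the groups. Adcy5 (ENSMUSG00000022840, chromosome 16, 35154877 to 35305738), the adenylyl cyclase that is most abundant in striatum, read 19.0 and 19.3 FPKM for WT1, 19.7 and 18.6 FPKM for WT2, 16.6 and 16.5 FPKM for KO1, and 20.4 and 19.9 FPKM for KO2. The WT animals lay between those labelled KO, and the difference was -0.06 (SE 0.09, 95% interval -0.31 to 0.18).

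Pde10a (ENSMUSG00000023868, chromosome 17, 8525372 to 8986648), a phosphodiesterase that degrades cAMP and cGMP in striatal neurons, read 11.0 and 10.6 FPKM for WT1, 9.06 and 9.64 FPKM for WT2, 10.3 and 10.4 FPKM for KO1, and 10.4 and 10.3 FPKM for KO2. All KO libraries lay within the WT range, and the difference was 0.04 (SE 0.08, 95% interval -0.16 to 0.24).

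Rgs9 (ENSMUSG00000020599, chromosome 11, 109225355 to 109298129), whose brain form speeds the shut-off of G protein signals from Drd2 and opioid receptors, read 3.70 and 4.25 FPKM for WT1, 4.06 and 4.39 FPKM for WT2, 4.05 and 4.11 FPKM for KO1, and 4.84 and 4.39 FPKM for KO2. The difference was 0.07 (SE 0.08, 95% interval -0.14 to 0.27). None of these 3 genes passed in limma, with adjusted p of 0.799 for Adcy5, 0.837 for Pde10a and 0.737 for Rgs9.

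Penk (ENSMUSG00000045573, chromosome 4, 4133531 to 4138819), the enkephalin precursor of striatal neurons that carry Drd2, read 26.7 and 26.1 FPKM for WT1, 20.9 and 22.3 FPKM for WT2, 17.3 and 17.1 FPKM for KO1, and 17.6 and 17.2 FPKM for KO2. The KO libraries were close to each other and below all WT libraries, and WT1 stood above WT2. The difference was -0.45 (SE 0.10, 95% interval -0.70 to -0.19) and did not pass in limma (adjusted p = 0.161). Enkephalin is also made by hippocampal interneurons and granule cells. The interneuron gene Gad1 read 95.1 to 103 FPKM in WT and 95.7 to 97.7 FPKM in KO animals. Of 10 interneuron markers 6 had a lower mean in KO, beside 9674 of 16667 genes tested (median difference -0.03, and 0.01 with median-of-ratios scaling). Members differed in direction, and 0 passed in limma. At an unadjusted p under 0.05 there were 1 lower (Slc32a1, -0.26) and 2 higher (Vip, 0.42, and Npy, 0.30), beside 11.4% and 4.11% of all genes.

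Six3 (ENSMUSG00000038805, chromosome 17, 85613608 to 85629302), a homeobox factor needed for striatal neurons that carry Drd2, read 2.15 and 2.32 FPKM for WT1, 1.64 and 1.84 FPKM for WT2, 0.481 and 0.610 FPKM for KO1, and 1.204 and 0.860 FPKM for KO2. All KO libraries were below all WT libraries, with KO1 the lowest. The deposited limits of single libraries met only slightly, reaching down to 1.37 FPKM in WT and up to 1.43 FPKM in KO. The difference was -0.75 (SE 0.16, 95% interval -1.17 to -0.33) and did not pass in limma (adjusted p = 0.162). With a pseudocount of 0.1 it was -1.28. Six3os1, a transcript on the opposite strand that overlaps 4791 bases of Six3, stood at 1.41 FPKM over the WT and 0.640 FPKM over the KO animals, so the reads of the pair cannot be told apart.

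Promoters are shown for Drd2 and Six3, which were both lower in all KO libraries and have an entry in the RefSeq promoter table (GRCm38.p6). Of the 9 genes 6 have one, and Ppp1r1b, Ppp1r1a and Penk do not. Capitals mark GC boxes (GGGCGG) and CCAAT boxes (CCAAT) on either strand. Each line runs 5′ to 3′ from 250 bases before the start site to 50 after it.
Drd2, chr9:49340153-49340452, plus strand: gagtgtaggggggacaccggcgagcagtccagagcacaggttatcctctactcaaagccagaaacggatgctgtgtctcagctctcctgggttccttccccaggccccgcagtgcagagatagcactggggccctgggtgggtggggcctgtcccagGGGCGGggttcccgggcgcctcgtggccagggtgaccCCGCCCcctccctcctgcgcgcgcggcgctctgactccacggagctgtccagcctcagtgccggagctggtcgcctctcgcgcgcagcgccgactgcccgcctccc
Six3, chr17:85620584-85620883, plus strand: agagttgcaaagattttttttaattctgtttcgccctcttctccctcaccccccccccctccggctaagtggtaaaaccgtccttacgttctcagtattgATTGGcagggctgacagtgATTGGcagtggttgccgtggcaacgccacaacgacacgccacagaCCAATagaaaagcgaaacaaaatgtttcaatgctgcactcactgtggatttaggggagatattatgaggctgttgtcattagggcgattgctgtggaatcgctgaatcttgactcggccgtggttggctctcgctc
The Drd2 window is 70.3% G and C and holds 2 GC boxes and 0 CCAAT boxes, while the Six3 window is 50.0% G and C and holds 3 CCAAT boxes and 0 GC boxes. GC boxes occur in 35.7% and CCAAT boxes in 37.4% of the 32851 promoters of this length. The cAMP response element (TGACGTCA) and its shorter form (TGACG) were searched on both strands, and these letters are in none of the 8 windows of the 6 genes. They occur in 1.79% and 20.8% of all promoters, and every full element also holds the shorter form.

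In the fit over all 16667 genes with at least 0.5 FPKM in 2 animals, limma called 9 genes with the Benjamini-Hochberg adjusted p below 0.05, all lower in KO (0.0540% of genes tested). The count was 0 without WT1, 1 without WT2, 11 without KO1 and 224 without KO2. All 9 genes examined here were tested, and Ppp1r1b was among those called, which is how the genes came to be chosen. That call was lost in 5 of 13 alternative settings, among them without WT1, without WT2 and without KO1. Of the other 8 genes 0 passed in limma (adjusted p = 0.161 to 0.837), and across 13 alternative settings their adjusted p ranged from 0.0628 to 0.992. At an unadjusted p under 0.05 there were 3 of 8, Drd2, Penk and Six3, all lower, beside 11.4% of all genes lower and 4.11% higher. The lower share of these unadjusted calls over all genes was 73.6%, against 51.1% with median-of-ratios scaling and 53.3% with quantile normalization. With 2 against 2 animals, the smallest p of an exact permutation test of 1 gene is 0.333.

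In 4 of the other 8 genes, Drd1, Drd2, Penk and Six3, neither KO animal reached the lower of the WT animals, as in 30.7% of all genes. Both KO animals were above both of WT in 0 of 8, beside 18.4% of all genes. All 4 KO libraries lay below all 4 WT libraries in 3 of 8, beside 13.0% of all genes. The median difference of the other 8 genes was -0.08, and that of all genes tested -0.02.

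The order of the levels differed little between the groups. In WT animals it ran Ppp1r1a, Ppp1r1b, Penk, Adcy5, Pde10a, Rgs9, Drd2, Six3 and Drd1, and the ranges of neighbours met only for Drd2 and Six3. In KO animals Adcy5 stood before Penk, with ranges that met, and Six3 came last, after Drd1. Ppp1r1b was 2.59 and 2.73 times Adcy5 in the WT animals, and 1.69 and 1.40 times in those labelled KO. Its ratio to Penk was 1.87 and 2.42 in WT and 1.63 in each KO animal.

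Beyond the 9 genes, most of the other striatum-enriched genes had values close to each other in WT and KO, as did most genes of the whole table. Of 32 such genes listed, 28 were tested and 4 (Drd3, Ido1, Sh3rf2 and Gpr149) were under the minimum. Means in KO were higher for 16 and lower for 12, beside 6993 and 9674 of 16667 genes tested. The median difference of the 28 was 0.01, and 21 of 28 were within 0.15 of 0 on the log2 scale, beside 75.2% of all genes tested. Without WT2 the median was -0.057 with 18 of 28 lower, and without WT1 it was 0.074. Both KO animals were below both WT animals in 6 of 28, beside 30.7% of all genes, and above in 4, beside 18.4%. In limma 0 passed higher and 1 lower (Pcp4l1), beside 0.0540% of all genes lower. The call of Pcp4l1 was known when the list was written, so the count of 1 says nothing about the list. Pcp4l1 is also among the 6 genes with both KO animals below. At an unadjusted p under 0.05 there were 2 higher (Arpp21 and Gng7) and 4 lower (Pcp4l1, Strip2, Coch and Tac1) of 28, beside 4.11% and 11.4% of all genes.

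The gene that passed was Pcp4l1, related to Pcp4, which binds calmodulin, and its call was known when the list was written. It read 50.9 and 54.2 FPKM in the WT animals and 30.8 and 31.1 FPKM in those labelled KO. The difference was -0.74 (SE 0.05, limma adjusted p = 0.0373), and its ratio to Ppp1r1b hardly varied, with Ppp1r1b at 0.972 and 0.965 times its level in WT and 0.909 and 0.910 times in KO. The call was lost in 5 of 13 alternatives, among them without WT1 (limma adjusted p = 0.0964), without WT2 (0.15) and without KO1 (0.0764), while the difference stayed between -0.79 and -0.70.

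Several of the abundant listed genes did not follow Ppp1r1b, while others, among them Pcp4l1 and Strip2, were lower in KO. These are values of bulk hippocampus and do not show which cells made the RNA. Pde1b, a calmodulin-dependent phosphodiesterase, read 37.6 and 33.9 FPKM in the WT animals and 36.1 and 36.4 FPKM in those labelled KO. Gnal, the G protein subunit that couples Drd1 to Adcy5, read 32.2 and 27.5 against 29.5 and 28.0 FPKM. Ptpn5, the striatum-enriched phosphatase STEP, read 42.5 and 38.0 against 40.2 and 40.8 FPKM. The animals overlapped for each of these, as they did for Rasd2, Rasgrp2, Kcnip2 and Lrrc10b, whose differences were -0.02, 0.00, 0.02 and 0.02.

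Some listed genes stood apart from that majority without passing in limma. Strip2 read 10.8 FPKM in each WT animal and 7.66 and 7.70 FPKM in those labelled KO (difference -0.45, SE 0.05, adjusted p = 0.0979). Coch, named after its values were seen, read 3.96 and 4.69 FPKM in WT and 2.74 and 2.73 FPKM in KO (-0.51, SE 0.09, adjusted p = 0.118). Tmem158 read 29.6 and 25.7 against 23.3 and 25.045 FPKM (-0.19). Arpp21, a phosphoprotein regulated by cAMP, was on the other side at 42.3 and 45.5 FPKM in WT and 53.4 and 49.8 FPKM in KO (0.23, SE 0.06, adjusted p = 0.196), and so was Gng7, the G protein gamma subunit that partners the product of Gnal in striatum, at 50.3 and 46.4 against 52.6 and 53.5 FPKM (0.13).

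**Figure D2:**
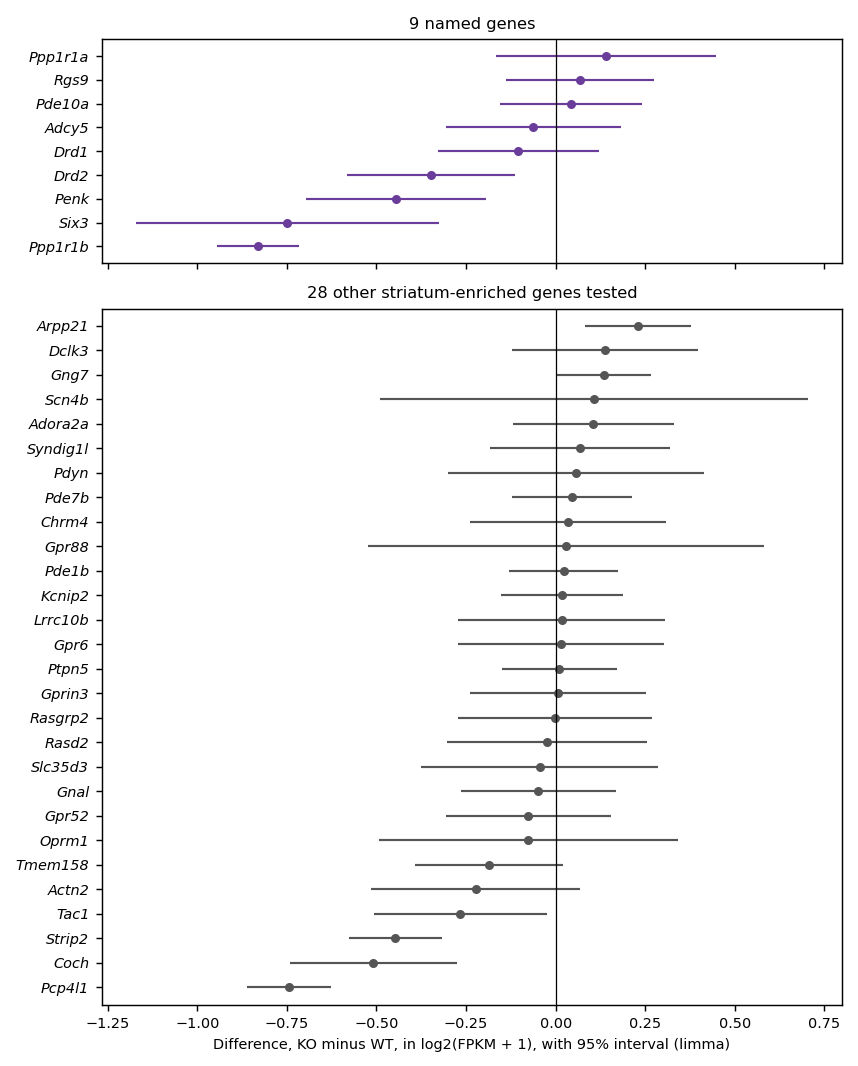
Difference between KO and WT in log2(FPKM + 1) on the horizontal axis, with its 95% interval from limma, for the 9 genes (upper panel) and the 28 other striatum-enriched genes tested (lower panel). Ppp1r1b at -0.83, Six3 at -0.75 and Pcp4l1 at -0.74 are furthest to the left. The value of Ppp1r1b chose the genes, and the call of Pcp4l1 was known when its list was written. In the lower panel 21 of the 28 genes are within 0.15 of 0, beside 75.2% of all genes tested.

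Transcription factors of striatal neurons had a median difference of -0.16, with 9 of 12 tested lower in KO and 3 higher. Of all 16667 genes tested, 9674 were lower and 6993 higher. In limma 0 of the 12 passed. At an unadjusted p under 0.05 there were 2 lower, Isl1 and Dlx6, and 0 higher, beside 11.4% and 4.11% of all genes. After quantile normalization the median of the 12 was -0.06 with 8 lower, beside 6857 of 16667 genes. With that scaling 0 were lower at an unadjusted p under 0.05 in limma. The median was -0.083 without KO1, -0.095 without WT2, -0.15 without WT1 and -0.225 without KO2. The most abundant members were on the higher side. Bcl11b, a zinc finger factor also found in CA1 and dentate neurons, read 24.6 and 23.1 FPKM in WT and 26.1 and 24.1 FPKM in KO, and Foxp1 read 14.0 and 15.9 against 15.95 and 16.8 FPKM. Dlx6, a homeobox gene of forebrain inhibitory neurons, read 7.02 and 5.46 against 4.20 and 4.91 FPKM (-0.38, SE 0.13, adjusted p = 0.279). Isl1, a factor of striatal neurons that carry Drd1, named after its values were seen, was low in all animals, at 0.874 and 0.675 against 0.328 and 0.499 FPKM.

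Genes listed around DARPP-32 signalling (kinases, phosphatases and their regulators, and G protein genes) mostly had slightly higher means in KO. The list also holds other regulators of protein phosphatase 1, among them Ppp1r8 and Ppp1r14a, and not every listed gene acts with DARPP-32. Of 33 listed 32 were tested, 28 higher and 4 lower (Gnas, Cdk5, Ppp1r8 and Ppp1r14a), beside 6993 and 9674 of 16667 genes. The median of the 32 was 0.07. In limma 0 passed, while at an unadjusted p under 0.05 there were 10 higher and 0 lower, beside 4.11% and 11.4% of all genes. The higher calls over all genes depended on the scaling. After quantile normalization there were 7 higher, beside 1162 of 16667 genes, and with median-of-ratios scaling 12, beside 1380 of 16654 genes. Means in KO were higher for 31 of 32 with median-of-ratios scaling, beside 9171 of 16654 genes. With quantile normalization they were higher for 26 of 32, beside 9806 of 16667 genes. Ppp3ca, the calcineurin subunit that dephosphorylates DARPP-32, read 492 and 413 FPKM in WT and 543 and 468 FPKM in KO, and Prkar1b, a regulatory subunit of protein kinase A, read 176 and 175 against 197 and 191 FPKM. Ppp1r9b, the phosphatase 1 anchor spinophilin, read 236 and 220 against 248 and 255 FPKM. Gnas, the stimulatory G protein subunit, was on the lower side at 823 and 837 against 800.1 and 815 FPKM.

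Genes of dopamine synthesis, transport and breakdown were at low levels for the most part. Of 12 listed 7 were tested, 3 higher and 4 lower (Ddc, Slc18a2, Maoa and Maob), beside 6993 and 9674 of 16667 genes. In limma 0 passed. At an unadjusted p under 0.05 there were 0 higher and 1 lower, beside 4.11% and 11.4% of all genes. Maob, a monoamine oxidase mostly of glia, was that gene, at 10.9 and 11.8 against 8.59 and 8.53 FPKM (-0.37, SE 0.06, adjusted p = 0.109). Drd5, a receptor that raises cAMP and is known from hippocampal neurons, stood above Drd1 at 4.28 and 3.85 against 4.498 and 3.78 FPKM. Th, the enzyme that makes the dopamine precursor, named after its values were seen, was at or under 0.434 FPKM in every animal.

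Profiles over the 4 animals were compared by the root mean square difference of log2(FPKM + 1), centred on each gene's mean, among genes with a mean of at least 5 FPKM. Of 9738 genes compared, those nearest to Ppp1r1b were Hbb-bt (0.0387), Pcp4l1 (0.0437), Hba-a2 (0.0652), Tmem98 (0.0654) and Aebp1 (0.0666). This distance includes the difference between the groups that chose Ppp1r1b. Genes with a like difference and a small spread therefore come near it by construction. Hbb-bt and Hba-a2 are globin genes, whose reads are hard to divide among near-identical copies. Among the 9 genes and the listed striatum-enriched genes, Pcp4l1 was nearest to Ppp1r1b, followed by Coch (0.167), Six3 (0.179) and Strip2 (0.194). The call of Pcp4l1 was known when that list was written.

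Each of the other 4 genes with a mean of at least 5 FPKM had other nearest genes. For Penk these were Erdr1, Plin3 and Tns2 (0.0330 to 0.0449), and for Ppp1r1a they were Sema7a, Rgs14 and Ppp3ca (0.00943 to 0.0143). For Adcy5 they were Eps8, Ankrd6 and Rapgef6 (0.00587 to 0.0150), and for Pde10a Ccdc88a, Gphn and Btbd9 (0.00493 to 0.00937).

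Choroid plexus markers were lower in the same KO animals as Ppp1r1b, in 20 of 20 genes (median difference -2.24), beside 9674 of 16667 genes tested. In no animal was any of them at 0. In limma 0 of the 20 passed. All 20 were lower at an unadjusted p under 0.05 in limma, beside 11.4% of all genes. Their summed level was 4315 and 7599 FPKM in the WT animals, and 296 and 1260 FPKM in those labelled KO. All 5 blood markers were lower as well (median -0.95, sums 287 and 317 against 149 and 158 FPKM). Of these 2, Hba-a1 and Hba-a2, were called in limma, beside 0.0540% of all genes. Also lower were 7 of 7 ependymal markers (median -0.77, sums 67.3 and 59.4 against 25.3 and 44.3 FPKM). The same held for 9 of 9 meningeal fibroblast markers (median -0.57, sums 47.6 and 70.2 against 23.2 and 44.3 FPKM). Of the meningeal list 8 of 9 were lower after quantile normalization, beside 6857 of 16667 genes. Its median was -0.278 without WT2 and -0.763 without WT1. The ependymal median was -0.464 without KO1 and -1.072 without KO2. The part of these tissues in the values of Ppp1r1b, Pcp4l1, Drd2, Penk and Six3 was not tested.

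Within a group the choroid plexus markers varied far more than Ppp1r1b. All 20 were higher in KO2 than in KO1, beside 9661 of 16667 genes tested, with a median ratio of 3.31. Ttr, the transthyretin gene, was 5.19 times higher there. Ppp1r1b was 1.01 times higher in KO2, and Penk also 1.01 times. Six3 was 1.89 times and Drd2 1.09 times higher in KO2 than in KO1. All 20 choroid plexus markers were also higher in WT2 than in WT1 (median ratio 1.31, Ttr 1.88), beside 8489 of 16667 genes tested. Ppp1r1b was 1.06 times as high in WT2 as in WT1, and Penk, Drd2 and Six3 were 0.818, 0.853 and 0.780 times as high. Six3 thus moved with these markers between the KO animals and against them between the WT animals. The blood markers differed by a median of 1.07 times between the KO animals and 1.11 times between the WT animals. Each ratio rests on the 2 animals of a group, and a part of either tissue in the values of Ppp1r1b was not tested.

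**Figure D3:**
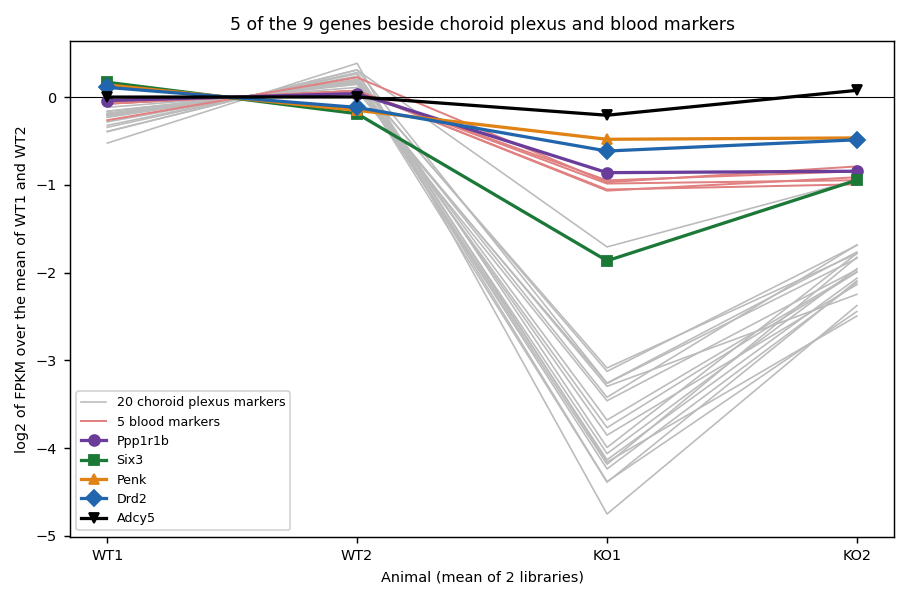
Level in each animal (mean of 2 libraries) as the log2 of FPKM over the mean of WT1 and WT2, for Ppp1r1b, Six3, Penk, Drd2 and Adcy5, with the 20 choroid plexus markers in grey and the 5 blood markers in red. Ppp1r1b lies level between KO1 and KO2 while all 20 choroid plexus markers are higher in KO2 than in KO1, by a median of 3.31 times. Of all genes tested, 9661 of 16667 are higher in KO2 than in KO1. A part of this tissue in the values of Ppp1r1b was not tested.

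Markers of hippocampal and neocortical neurons had medians nearer to 0, which depended on single animals. The median of 7 dentate granule markers was -0.03, at 0.01 with median-of-ratios scaling, 0.06 with quantile normalization, and between -0.163 (without WT2) and 0.13 (without WT1) with 1 animal left out. The median of 6 CA1 markers was 0.14, and it was 0.07 without WT2, -0.017 without KO1 and 0.336 without KO2. The median of 7 neocortex markers was 0.14, and it was 0.02 without KO1, 0.268 without WT2 and 0.261 without KO2. The mossy cell and CA3 median of 0.14 stayed between 0.116 and 0.214 with 1 animal left out.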

How the data were processed

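For each library the authors deposited 1 gene table holding FPKM with its confidence limits and a status, per the file headers. Names in the submitters' processing notes are mm10, Bowtie (version 1) and HISAT. The sources used here give neither the program that computed FPKM, nor the scaling between libraries, nor the strand setting. The 53 rows that repeat a gene identifier were summed, and 12 values not marked OK were left out. No counts were used: fragment numbers implied by the limits came out whole, within 0.05, for only 30.9% to 34.3% of genes with under 20 implied fragments. Those numbers sum to roughly 11300000 to 14100000 per library, a depth that covers counting error only.

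Technical replicates were averaged per animal. limma 3.58.1 in R 4.3.3, with a trended variance, was fitted to log2(FPKM + 1) of all genes with at least 0.5 FPKM in 2 animals, KO minus WT. The Benjamini-Hochberg adjustment covered all 16667 genes, with a threshold of 0.05. The fit was also run on simulated data whose noise was independent between genes. Choroid plexus markers varied together here, so that run does not measure the error rate in these data. The pseudocount understates changes of low genes. The 9 genes, the 13 lists and the minimum were chosen with earlier results of these data known. Besides the 9 genes, the text names listed genes that passed, the most abundant of each list (12 for striatum-enriched genes, 6 for the others, not all printed), the 5 or 3 genes with the nearest profile, Ptk2b, and genes said to be named after their values were seen. Markers named for cell types come from the lists. Alternatives were other scalings, pseudocount, minimums, single technical replicates, an untrended variance, a block and each animal left out.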

Additional observations from a re-analysis of the deposited data

How the results depend on the processing

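Ppp1r1b kept its direction under all 13 alternatives but was called in only 8 (lost with no filter, with an untrended variance and without WT1, WT2 or KO1), at -0.79 after median-of-ratios scaling and -0.87 to -0.79 with 1 animal left out. Penk, Drd2 and Six3 also kept theirs. Drd1 was 0.005 after quantile normalization and Rgs9 -0.02 with the second technical replicates only. With 1 animal left out, Ppp1r1a ranged from 0.005 to 0.275, Adcy5 from -0.20 to 0.072, Pde10a from -0.052 to 0.14 and Rgs9 from -0.005 to 0.14. The median of the striatum-enriched genes ranged from -0.057 (without WT2) to 0.074. The count of genes called in limma was 9, and 14 with a pseudocount of 0.1, 0 with no filter on low values (3741 at an unadjusted p under 0.05), 19 and 35 with the first or second technical replicates only, 1 with an untrended variance, and 0 (without WT1) to 224 (without KO2) with 1 animal left out, where the spread of the remaining lone animal is taken from the other pair. With the animal number as a replicate block the count was 184 (8 higher, 176 lower). The labels do not say that equal numbers are paired, and deviations of same-numbered animals had a correlation over genes of 0.107. The block changed no call among the 8 genes other than Ppp1r1b. For the counts and values that moved, the cause was not tested. The deposited limits set the precision of single libraries, which is lowest for Drd1, Drd2 and Six3.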
